A study of Mus musculus with 6 samples.

Results

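The core genes of the Ras and ERK cascade were followed in cultured satellite cells, which are muscle stem cells, of the mouse. They are the Ras genes Hras and Nras, the Raf kinase genes Araf and Braf, the MEK genes Map2k1 and Map2k2, and Mapk3, which encodes the kinase ERK1. They were chosen by name and not by their values, though with earlier results of these data known. All 7 were found among the 27366 features of the deposited table and passed the filter on low values. The study grew the cells in medium with serum and basic FGF and sequenced their RNA at day 4, in 3 Islr knockout-labelled and 3 control-labelled libraries. Both groups had the same culture. The labels do not name the knockout allele, what drives it or the age of the mice, and the series design speaks of sorting the cells by whether Islr was present. Islr codes for a secreted leucine-rich repeat protein. Whether a group's libraries came from separate animals or cultures is not stated, so the spread behind each p-value is that of these libraries and may be technical.

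The cascade carries growth factor signals from the membrane to the nucleus. GTP-bound Ras recruits Raf kinases, which phosphorylate the MEK kinases, and these phosphorylate ERK. In muscle progenitors, FGF signalling through this route is known for sustaining proliferation and holding back differentiation. The cascade is switched mainly by GTP loading and phosphorylation, which RNA levels do not show. The series title names phosphorylated ERK and Sparc as its subject, and the comparison below addresses whether the cascade's own transcripts differ between the groups.

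The libraries held 16456917 to 20531276 reads on genes. Values below are reads divided by the authors' size factor of each library, called scaled reads. Islr, the targeted gene, did not part the groups. It stood at 256.7, 7.4 and 10.9 scaled reads in the knockout-labelled libraries 1, 2 and 3, and at 181.1, 12.8 and 1579 in control-labelled ones 1, 2 and 3. The libraries labelled knockout 1 and control 2 thus go against their labels, since knockout 1 is above controls 1 and 2, and control 2 lies close to knockouts 2 and 3. Reads from outside the deleted part, which is not given, check nothing. The library labelled control 1 was tied to its column by a name with 2 digits exchanged. Fold changes without each of these 3 libraries are given below. Same-numbered libraries of the 2 groups were alike, so fits with the replicate number as a block (a term that compares libraries within each number) are given too. The fits that leave out 1 library have no block. The number of that library then stands in 1 group only, so differences between numbers enter those fold changes.

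None of the 7 genes passed the test between the groups. Across all 20344 genes tested, 0 (0.0%) had an adjusted p under 0.05 in limma, against 276 (1.36%) at an unadjusted p under 0.05. The count past the threshold was also 0 in edgeR and in DESeq2, with 162 of 14214 genes (1.14%) in edgeR and 318 of 27366 (1.16%) in DESeq2 at an unadjusted p under 0.05. With the replicate block the count at an unadjusted p, over the same numbers of genes for each tool, was 933 (4.59%) in limma, 609 (4.28%) in edgeR and 714 (2.61%) in DESeq2, and DESeq2 alone then had genes past the threshold, 7 in all (0.0256%), with none of the cascade genes among them. None of the 7 was among the 276. Of the 7 genes, 3 were on the higher and 4 on the lower side in the knockout-labelled libraries, against 10789 and 9555 of all genes tested. Their median log2 fold change was -0.03, against 0.03 over all genes tested. The median size of the log2 fold change was 0.08 for the 7 genes and 0.27 over all genes tested. The limma adjusted p was 1.0 for each of the 7 genes, and ran from 0.92 to 0.99 with the replicate block. Mean, SD and fold changes below are over 3 libraries in each group, and fold changes are on the log2(scaled reads + 1) scale.

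**Figure D1:**
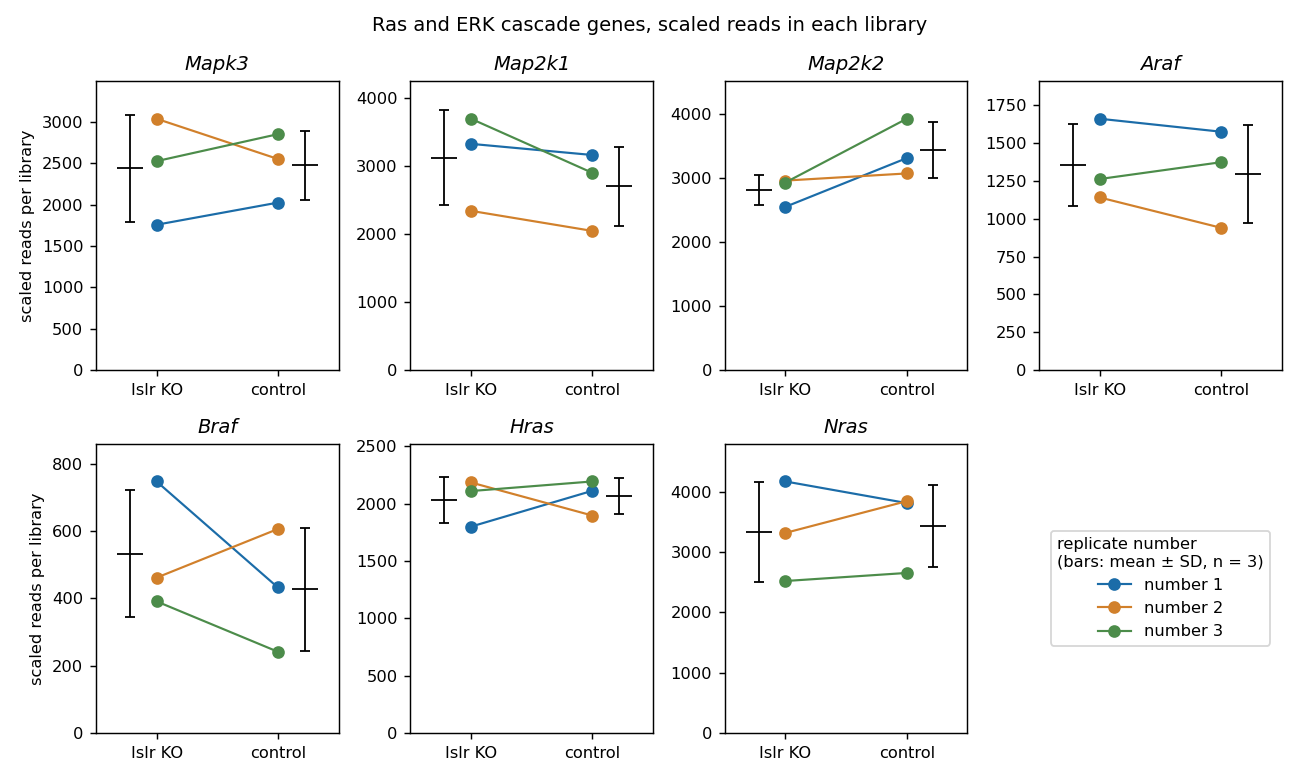
Scaled reads of the 7 genes in each library, with the Islr knockout-labelled libraries on the left and control on the right of each panel; lines join libraries of the same replicate number, and bars give the mean and SD of 3 libraries. Map2k2 is the gene whose groups do not overlap, with 2556 to 2966 scaled reads in the knockout-labelled libraries and 3078 to 3933 in control-labelled ones.

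At the top of the cascade stand the Ras genes, which encode small GTPases of the plasma membrane. Hras (ENSMUSG00000025499, chromosome 7 from 141189105 to 141194005 on GRCm38) was the steadiest of the 7. It had 1800, 2186 and 2111 scaled reads in the knockout-labelled libraries 1, 2 and 3, and 2113, 1897 and 2195 in control-labelled ones 1, 2 and 3. The groups overlapped, and the highest library was 1.22 times the lowest. The means were 2032 ± 204 in the knockout-labelled libraries and 2068 ± 154 in control-labelled ones (SD, n = 3 each), a log2 fold change of -0.03 ± 0.23 (SE). Its 95% confidence interval ran from -0.54 to 0.49, that is from 0.686 to 1.40 times the control level. Without the library labelled knockout 1 it was 0.057, without control 1 it was -0.011, and without control 2 it was -0.089. Nras (ENSMUSG00000027852, chromosome 3 from 103058285 to 103067914) had 4166, 3314 and 2517 scaled reads in the knockout-labelled libraries, and 3808, 3840 and 2651 in control-labelled ones. Both libraries of number 3 were the lowest of their group, and the groups overlapped. Its log2 fold change was -0.05 ± 0.29 (SE), with an interval from -0.70 to 0.60, and was -0.23 without knockout 1, 0.033 without control 1 and 0.039 without control 2, so its direction turned without either control.

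Hras and Nras proteins share most of the part that binds nucleotide and effectors and differ in their tails, which are processed by lipid-adding enzymes and steer each protein among membranes. Their coding sequences, each of 570 bases in GENCODE, were identical at 428 bases (75.1%), with a longest shared run of 23 bases. The last 75 coding bases show how far the 2 transcripts part at the tail, with capitals at the 39 bases that differ (Hras on the minus strand, chr7:141191348-141191422, and Nras on the plus strand, chr3:103063375-103063449, GRCm38).
Hras: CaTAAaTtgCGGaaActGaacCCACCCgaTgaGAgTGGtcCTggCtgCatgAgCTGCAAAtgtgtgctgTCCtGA
Nras: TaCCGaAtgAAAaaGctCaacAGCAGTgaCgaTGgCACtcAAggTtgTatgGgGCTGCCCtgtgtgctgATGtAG
The ratio of Hras to Nras scaled reads was 0.432, 0.660 and 0.839 in the knockout-labelled libraries 1, 2 and 3, and 0.555, 0.494 and 0.828 in control-labelled ones. It was nearer to 1 in both libraries of number 3 than in the others. The log2 ratio differed by 0.02 between the groups (exact permutation test, two-sided p = 0.9, where 0.1 is the smallest p that 3 against 3 libraries allow).

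The Raf kinases, which bind GTP-loaded Ras and phosphorylate MEK, were the least abundant tier per length. Araf (ENSMUSG00000001127, chromosome X from 20797814 to 20860519) had 1659, 1139 and 1261 scaled reads in the knockout-labelled libraries, and 1573, 939 and 1372 in control-labelled ones. Both libraries of number 1 were the highest and both of number 2 the lowest of their group. The log2 fold change of Araf was 0.08 ± 0.28 (SE), with an interval from -0.57 to 0.72, and was -0.08 without knockout 1, 0.23 without control 1 and -0.14 without control 2, so its direction turned without knockout 1 or control 2. Braf (ENSMUSG00000002413, chromosome 6 from 39603237 to 39725463) had 747.3, 461.3 and 390.9 scaled reads in the knockout-labelled libraries, and 432.2, 606.0 and 241.2 in control-labelled ones. Braf varied the most of the 7 genes, with the highest library at 3.10 times the lowest, and its groups overlapped. The means were 533 ± 189 in the knockout-labelled libraries and 427 ± 183 in control-labelled ones (SD, n = 3 each). Its log2 fold change of 0.36 ± 0.40 (SE) had the widest interval of the 7, from -0.54 to 1.27. Between same-numbered libraries, the log2 difference of Braf was 0.79 in number 1, -0.39 in number 2 and 0.69 in number 3, so the direction was not shared. Its fold change was 0.0026 without the library labelled control 3, 0.09 without that labelled knockout 1, 0.67 without control 2 and 0.42 without control 1. Braf exons share 146 bases (1.1% of them) with Ndufb2 on the other strand, and Araf exons 9 bases with Syn1. The ratio of Araf to Braf was 2.22, 2.47 and 3.22 in the knockout-labelled libraries, and 3.63, 1.55 and 5.67 in control-labelled ones. The knockout-labelled libraries thus lay within the range of the control libraries (exact permutation test, two-sided p = 0.6).

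The MEK genes encode the dual-specificity kinases that activate ERK, and they lay on opposite sides. Map2k2 (ENSMUSG00000035027, MEK2, chromosome 10 from 81105915 to 81133975) had 2556, 2966 and 2936 scaled reads in the knockout-labelled libraries 1, 2 and 3, and 3317, 3078 and 3933 in control-labelled ones. Every knockout-labelled library was below every control-labelled one, as held for 2.11% of all genes tested, while groups without overlap in either direction made up 4.76%. The means were 2819 ± 229 in the knockout-labelled libraries and 3443 ± 441 in control-labelled ones (SD, n = 3 each). The log2 fold change of -0.28 ± 0.23 (SE) did not pass (limma adjusted p = 1.0), and its interval ran from -0.82 to 0.25. With the replicate block the interval was -0.71 to 0.14 (limma adjusted p = 0.92). Without the library labelled knockout 1 the fold change was -0.21, without that labelled control 1 it was -0.31, and without control 2 it was -0.36.

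Map2k1 (ENSMUSG00000004936, MEK1, chromosome 9 from 64185770 to 64253631) had 3323, 2340 and 3692 scaled reads in the knockout-labelled libraries, and 3160, 2045 and 2898 in control-labelled ones. The groups overlapped, since both libraries of number 2 were low, but the knockout-labelled library was the higher one in each of the 3 pairs. The log2 difference was 0.07, 0.19 and 0.35 in numbers 1, 2 and 3, and 12.2% of all genes tested were also higher in all 3 pairs. Map2k1 and Map2k2 were the 2 genes of the 7 with a direction shared by all 3 pairs, against 24.3% of all genes. The fold change of 0.21 ± 0.29 (SE) did not pass, with an interval from -0.44 to 0.86, or from -0.21 to 0.62 with the block (limma adjusted p = 0.925). Without the library labelled control 2 it was 0.02, without knockout 3 it was 0.07, and without knockout 2 it was 0.40. Without knockout 1 it was 0.15, and without control 1 it was 0.33.

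The ratio of Map2k1 to Map2k2 was 1.30, 0.789 and 1.26 in the knockout-labelled libraries 1, 2 and 3, and 0.952, 0.665 and 0.737 in control-labelled ones 1, 2 and 3. It was higher in the knockout-labelled library of each pair, by 1.37, 1.19 and 1.71 times, while the groups overlapped. The log2 ratio averaged 0.12 ± 0.40 in the knockout-labelled libraries and -0.37 ± 0.27 in control-labelled ones (SD, n = 3 each). The difference of 0.49 did not pass an exact permutation test (two-sided p = 0.2, smallest possible 0.1). An exact sign-flip test over the 3 pairs gave p = 0.25, the smallest it can give. This ratio does not depend on how the libraries were scaled.

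**Figure D2:**
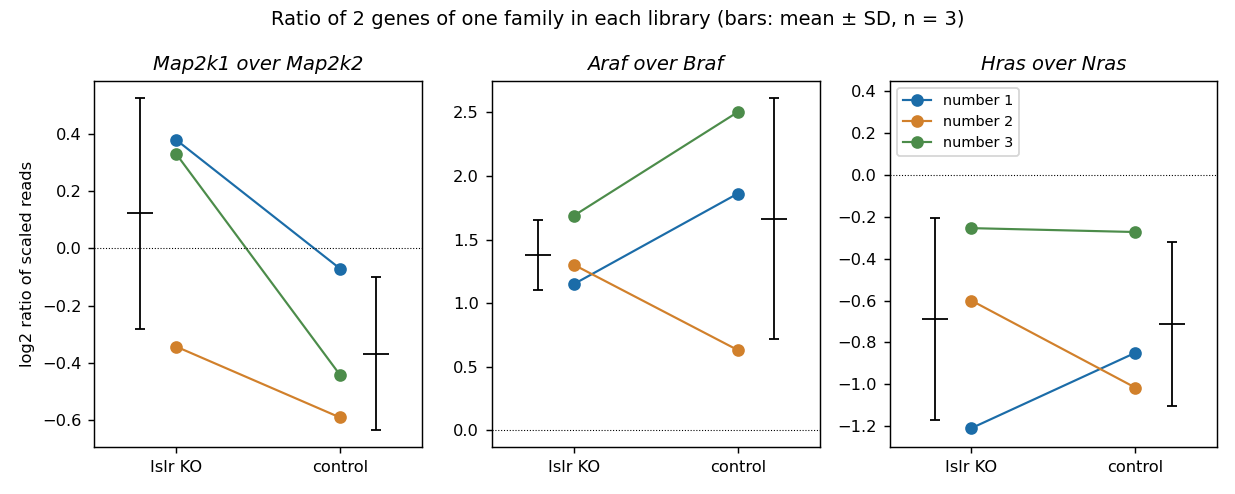
Log2 ratio of scaled reads of Map2k1 over Map2k2, Araf over Braf and Hras over Nras in each library, with Islr knockout-labelled libraries on the left and control on the right; lines join same-numbered libraries and bars give mean and SD of 3. The 3 lines of Map2k1 over Map2k2 all run higher at the knockout end, while those of the other ratios do not share a direction.

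The MEK transcripts are alike in sequence, which bears on how reads are assigned. Their coding sequences of 1182 and 1206 bases were identical at 927 of 1172 aligned bases (79.1%), with a longest shared run of 56 bases. The most alike 75-base window differed at 2 bases, shown in capitals (spliced coding bases from 370 on in Map2k1, minus strand, between 64205183 and 64212652 of chromosome 9, and from 382 on in Map2k2, plus strand, between 81115104 and 81118157 of chromosome 10).
Map2k1: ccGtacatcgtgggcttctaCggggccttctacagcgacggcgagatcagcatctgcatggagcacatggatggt
Map2k2: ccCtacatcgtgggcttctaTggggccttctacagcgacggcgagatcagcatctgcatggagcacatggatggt
Neither the read length nor the treatment of reads that match both genes is stated. Araf and Braf were identical at 70.6% of aligned coding bases, with a longest shared run of 17.

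The promoters of the MEK genes are shown because these genes were the pair on opposite sides. Each sequence runs from 250 bases before to 50 after the RefSeq start (GRCm38.p6), with capitals at matches to GGGCGG, the GC box of Sp factors, on either strand. Map2k1 is chr9:64253556-64253855 on the minus strand and Map2k2 is chr10:81105665-81105964 on the plus strand.
Map2k1: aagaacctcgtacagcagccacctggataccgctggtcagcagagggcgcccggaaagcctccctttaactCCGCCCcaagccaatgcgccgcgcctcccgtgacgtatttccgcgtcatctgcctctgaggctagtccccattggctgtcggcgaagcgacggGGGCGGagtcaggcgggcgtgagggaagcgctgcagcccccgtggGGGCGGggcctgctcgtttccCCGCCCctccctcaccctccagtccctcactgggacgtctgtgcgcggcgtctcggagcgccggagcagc
Map2k2: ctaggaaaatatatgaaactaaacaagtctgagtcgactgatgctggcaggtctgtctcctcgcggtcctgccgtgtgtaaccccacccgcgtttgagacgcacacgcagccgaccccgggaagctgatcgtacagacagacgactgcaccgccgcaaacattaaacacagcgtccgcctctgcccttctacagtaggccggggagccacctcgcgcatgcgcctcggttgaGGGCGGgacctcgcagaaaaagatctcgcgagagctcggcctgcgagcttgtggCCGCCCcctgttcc
Map2k1 held 4 matches and Map2k2 held 2. Of the 6 genes with a promoter in the table, 5 held at least 1 match, as did 35.7% of all 32851 promoters searched, and Araf was the gene without one. The letters CCGGAAG, a core bound by ETS factors, occurred on either strand in 0 of the 6, and in 8.9% of all promoters. A match is a description of these letters and not a site.

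Mapk3 (ENSMUSG00000063065, chromosome 7 from 126759601 to 126765819) encodes ERK1, the kinase at the end of the cascade. It had 1756, 3035 and 2523 scaled reads in the knockout-labelled libraries 1, 2 and 3, and 2023, 2550 and 2849 in control-labelled ones. Both libraries of number 1 were the lowest of their group, and the groups overlapped. The log2 difference between same-numbered libraries was -0.20, 0.25 and -0.18, with no shared direction. The fold change of -0.04 ± 0.28 (SE) had an interval from -0.69 to 0.60, or from -0.48 to 0.40 with the block. It was 0.18 without the library labelled knockout 1, -0.18 without that labelled control 1 and -0.014 without control 2. The intervals of Mapk3 thus span changes from 0.621 to 1.52 times the control level, and from 0.716 to 1.32 times with the block.

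**Figure D3:**
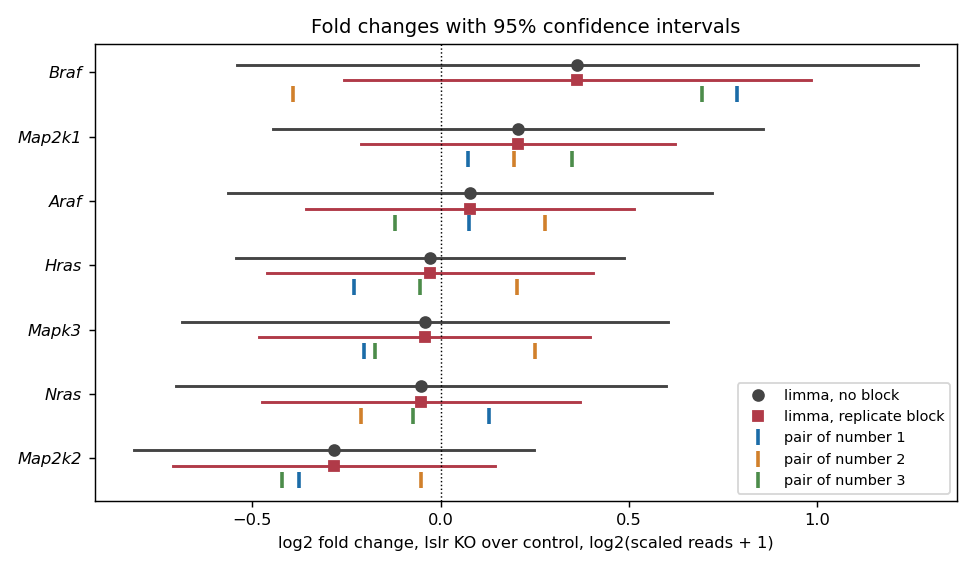
Log2 fold change of each gene, Islr knockout-labelled libraries over control, with the 95% confidence interval of limma without a block (grey) and with the replicate number as a block (red); coloured ticks are the differences of same-numbered libraries. Every interval spans 0, and the 3 ticks share a side for Map2k1 and Map2k2.

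The authors' deposited table holds their own comparison of the same 2 groups. In the authors' deposited table the log2 fold change is 0.32 for Braf, 0.21 for Map2k1, 0.06 for Araf, -0.02 for Mapk3, -0.03 for Hras, -0.04 for Nras and -0.29 for Map2k2. The adjusted p in the authors' deposited table is 1.0 for each.

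For Nras, Araf, Mapk3, Map2k1 and Braf, most of the variation lay between replicate numbers rather than between the groups. Replicate number took 92.6% of the sum of squares of log2 values for Nras, 89.4% for Araf, 85.0% for Mapk3, 84.2% for Map2k1 and 59.9% for Braf. It took 29.2% for Hras, where 69.1% lay in neither number nor group, and 25.2% for Map2k2. Replicate number has more terms than the group label, which raises its share for any gene. The group label took 56.1% for Map2k2 and 12.6% or less for each of the other 6 genes. Among the 10447 genes averaging 100 or more scaled reads, the median share was 69.2% for number and 7.2% for the group. In a moderated F test of replicate number with the group in the model, limma called 1291 of 20344 genes (6.35%) and none of the 7. The limma adjusted p ran from 0.185 for Map2k1 to 0.891 for Hras, and Map2k1 was the 1 gene of the 7 at an unadjusted p under 0.05, against 27.0% of all genes. Braf was called without the library labelled knockout 2 (limma adjusted p = 0.0363). What a number stands for is not given in the labels.

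The numbers also differed in their level of muscle differentiation markers. The summed level of 8 differentiation markers (Myog, Mymk, Myh3, Ckm, Acta1, Tnnt3, Mylpf and Actc1) was 415961, 14190 and 45302 scaled reads in the knockout-labelled libraries 1, 2 and 3. It was 448579, 3427 and 229980 in control-labelled ones 1, 2 and 3. The order of the libraries by Araf was the same as by these markers, except that the 2 libraries of number 1 changed places. Map2k1, like Araf, was lowest in the 2 libraries with the lowest sums, and Mapk3 was lowest in the 2 with the highest. Markers of satellite cells and myoblasts were at 56928 to 128978 scaled reads in the knockout-labelled libraries and 66302 to 136516 in control-labelled ones, summed over 8 genes, and Pax7 and Myod1 had reads in all 6. In bulk RNA, fewer cells of a type and less RNA per cell cannot be told apart.

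Markers of other cell types were present too, and 2 of the 3 knockout-labelled libraries stood apart in most of them. The 8 endothelial markers summed to 430.1, 1652 and 1528 scaled reads in the knockout-labelled libraries 1, 2 and 3, and 440.0, 726.0 and 589.8 in control-labelled ones. The 8 macrophage and immune markers summed to 97.0, 479.7 and 913.1 in the knockout-labelled libraries, and 190.0, 149.2 and 307.7 in control-labelled ones. In both lists knockouts 2 and 3 were above every control-labelled library, while knockout 1 was below all of them. Without the most abundant marker of each list, Cdh5 and Lyz2, knockouts 2 and 3 stayed above, but knockout 1 was no longer lowest. Without Cdh5 it had 319.4, against 301.1 in control 1, and without Lyz2 it had 52.5, against 46.6 in control 2. The 8 fibroblast and fibro-adipogenic markers summed to 6451, 9614 and 10842 in the knockout-labelled libraries, and 6865, 5231 and 10291 in control-labelled ones. In control 2 this sum was above that of the differentiation markers. Without Col3a1, the most abundant, the sums were 1834.5, 4165.5 and 4463.5 in the knockout-labelled libraries, and 1818.7, 1139.7 and 2868.8 in control-labelled ones. Knockouts 2 and 3 were then above every control-labelled library. Pdgfra, which defines fibro-adipogenic cells, had 83.3, 296.1 and 417.6 in the knockout-labelled libraries, and 91.1, 85.1 and 165.3 in control-labelled ones. The 8 Schwann and glial markers summed to 3149, 1922 and 1960.2 in the knockout-labelled libraries, and 2391, 781.9 and 1471 in control-labelled ones. Erbb3, the most abundant of them on average, had 2630, 251.9 and 375.0 in the knockout-labelled libraries, and 1862, 282.0 and 942.6 in control-labelled ones. Without it they summed to 519.1, 1669.9 and 1585 in the knockout-labelled libraries, and 528.8, 499.9 and 528.4 in control-labelled ones, with knockouts 2 and 3 again above the rest. Ptprc, which defines blood cells, was at 0 in knockout-labelled library 2 and in all 3 control-labelled ones, and reached at most 10 scaled reads in the other two. No marker of these lists was under 1 in every library. The part of differentiation and of other cells in the values of the 7 genes and of the gene lists below was not tested.

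Set per length, Braf was the least abundant of the 7 transcripts and Araf the next. Scaled reads per kilobase of merged exons averaged 34.6 ± 12.7 for Braf and 202 ± 41.2 for Araf (SD, 6 libraries). Hras (549 ± 43.6), Map2k2 (553 ± 82.0) and Nras (635 ± 127) came next in scaled reads per kilobase, then Map2k1 (858 ± 183) and Mapk3 (1088 ± 215). Braf was below Araf, and Araf below Hras, in 6 of 6 libraries. The upper neighbours were not parted: Map2k2 was above Hras in 3 of 6 libraries, Nras above Map2k2 in 4, Map2k1 above Nras in 5 and Mapk3 above Map2k1 in 4. The order of the upper 5 depended on the length used. By the length column of the table Map2k1 came first in 6 of 6 libraries, while by the authors' FPKM Mapk3 averaged 75.03, Map2k2 71.5 and Map2k1 65.9. Braf was last and Araf sixth by each of the 3 measures, with 2.67 ± 0.898 FPKM for Braf and 25.5 ± 5.27 FPKM for Araf. Per kilobase, the ratio of Araf to Braf was 4.70, 5.23 and 6.84 in the knockout-labelled libraries and 7.71, 3.28 and 12.1 in control-labelled ones.

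**Figure D4:**
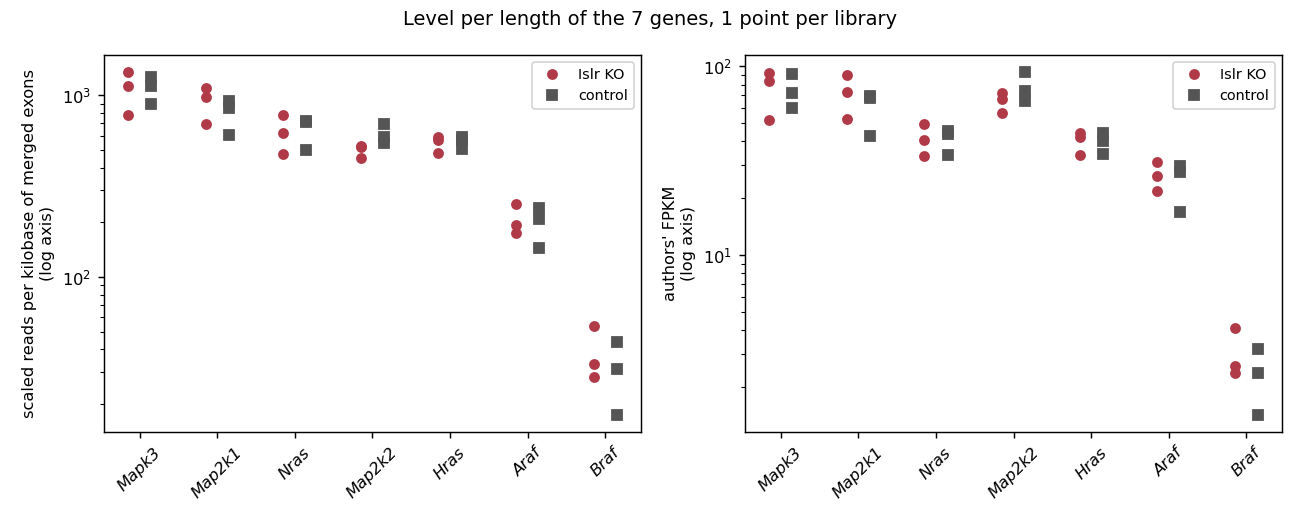
Level per length of each gene, with 1 point per library (circles for Islr knockout-labelled libraries, squares for control) on log axes, as scaled reads per kilobase of merged exons on the left and as the authors' FPKM on the right. Braf and Araf are lowest in both panels, while Map2k2 changes its place among the upper genes.

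Genes that act around the cascade were read from the same fit, as 8 lists with 58 genes, all tested. None passed in either direction (0 of 58 called, against 0.0% of all genes), and 0 had an unadjusted p under 0.05, against 1.36% of all genes. Their counts and medians are given as descriptions, and the lists were written with earlier results of these data known. Of all 20344 genes tested, 10789 were on the higher and 9555 on the lower side.

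Upstream of Ras stand adaptors and exchange factors, of which 5 of 7 were on the higher side in the knockout-labelled libraries (median log2 fold change 0.18, against 0.03 over all genes). Shc1, an adaptor between receptors and Grb2, had 2089, 2956 and 4635 scaled reads in the knockout-labelled libraries, and 1761, 2451 and 2432 in control-labelled ones. It was higher in each pair and, with the block, among the 4.59% of genes at an unadjusted p under 0.05 (limma adjusted p = 0.92). Ptpn11, the phosphatase SHP2, was the most abundant, with 4852, 4935 and 5114 in the knockout-labelled libraries and 4177, 6002 and 3632 in control-labelled ones. The Ras GTPase-activating proteins, which return Ras to its GDP form, were all 6 on the higher side (median 0.20), but their median was 0.41, -0.31 and 0.53 in numbers 1, 2 and 3. Rasa1 had 6837, 7098 and 6408 in the knockout-labelled libraries and 5749, 9072 and 2331 in control-labelled ones. Rasa2 had 578.4, 462.2 and 489.6 in the knockout-labelled libraries, against 458.8, 533.7 and 275.3 in control-labelled ones, so number 2 went the other way in both genes.

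Of 6 other Ras family GTPases, 4 were on the higher side (median 0.11). Rras2 was the most abundant at 5408, 4384 and 3983 scaled reads in the knockout-labelled libraries and 6058, 4526 and 3882 in control-labelled ones. Mras, which assembles with Shoc2 to act on Raf, had 197.4, 378.3 and 354.9 in the knockout-labelled libraries and 176.6, 247.1 and 349.4 in control-labelled ones. Scaffolds and cascade regulators were on the lower side in 5 of 7 (median -0.10). Pebp1, an inhibitor of Raf, had 4471, 6004 and 6478 in the knockout-labelled libraries, and 5796, 5930 and 7681 in control-labelled ones. Ksr1, a scaffold that holds Raf, MEK and ERK together, had 643.5, 279.5 and 385.8 in the knockout-labelled libraries, and 549.9, 351.9 and 686.9 in control-labelled ones. Ras processing enzymes, which lipidate and trim the tails shown above, were split 3 and 3 (median -0.08). Zdhhc9, which palmitoylates Ras, was higher in each pair, with 494.0, 440.1 and 504.7 in the knockout-labelled libraries and 454.4, 342.6 and 314.5 in control-labelled ones. Icmt, the methyltransferase of this route, had 1711, 2106 and 2366 in the knockout-labelled libraries and 1491, 2193 and 1446 in control-labelled ones.

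Downstream of ERK, 5 of 7 kinases and factors were on the higher side (median 0.16). Every knockout-labelled library was above every control library for Mknk1, an ERK-activated kinase of the translation factor eIF4E, as held for 2.65% of all genes. It had 374.2, 375.5 and 447.8 scaled reads in the knockout-labelled libraries and 300.0, 335.6 and 305.1 in control-labelled ones (limma adjusted p = 1.0). Its relative Mknk2 had 4882, 1993 and 2495 in the knockout-labelled libraries and 3703, 2304 and 3667 in control-labelled ones. The ERK-responsive transcripts were all 10 on the higher side (median 0.33), with medians of 0.11, -0.02 and 1.36 in numbers 1, 2 and 3. Dusp6, a phosphatase that removes phosphate from ERK, had 1141, 1560 and 2308 in the knockout-labelled libraries and 1051, 1229 and 692.1 in control-labelled ones. Its fold change of 0.73 had an interval from -0.03 to 1.496 (limma adjusted p = 1.0). With the block it too was among the 4.59% (limma adjusted p = 0.92). Ccnd1, the cyclin of cell cycle entry, had 6905, 11215 and 9204 in the knockout-labelled libraries and 5947, 12685 and 3323 in control-labelled ones.

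Of 9 kinases of other MAP kinase modules, 6 were on the higher side (median 0.05). For Mapk9, a JNK gene, every knockout-labelled library was above every control library, as held for 2.65% of all genes. It had 1037, 934.6 and 1038 scaled reads in the knockout-labelled libraries and 876.6, 805.2 and 789.2 in control-labelled ones (limma adjusted p = 1.0). Map2k3, an activator of p38, had 6403, 6332 and 2991 in the knockout-labelled libraries and 7172, 7265 and 2202 in control-labelled ones. It was low in both libraries of number 3, and limma called it between replicate numbers (adjusted p = 0.0229). The other gene of the 58 called between numbers was Egr1 (limma adjusted p = 0.0426), named after its value was seen. Over all genes tested, 6.35% were called between numbers.

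**Figure D5:**
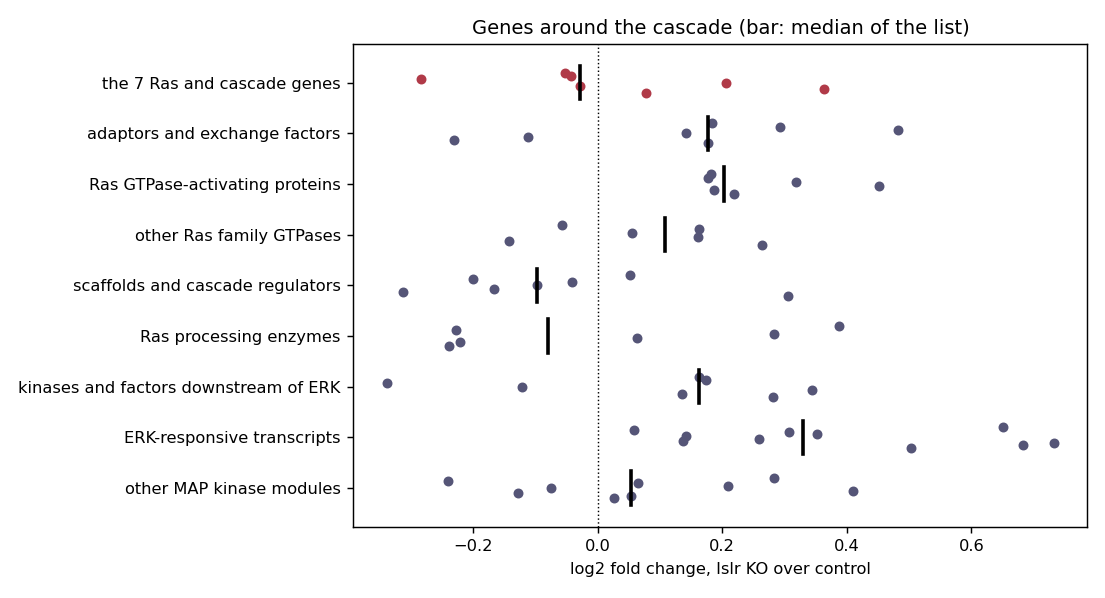
Log2 fold change, Islr knockout-labelled libraries over control, of the 7 genes (red) and of the 8 lists around the cascade, with 1 point per gene and a black bar at each list's median; the height of points within a row has no meaning. The 7 genes spread on both sides of 0, from -0.28 for Map2k2 to 0.36 for Braf, and the ERK-responsive transcripts lie on the higher side.

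Sparc, the matrix protein named in the series title, had 31909, 34823 and 31470 scaled reads in the knockout-labelled libraries, and 35643, 26619 and 26972 in control-labelled ones. The groups overlapped, and the pair of number 1 went against the other 2.

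For each of the cascade genes except Araf, the gene whose log2 values followed it most closely over the 6 libraries was sought among 10275 others averaging 100 or more scaled reads. The correlations over these 6 libraries, which share their replicate numbers in pairs, are a description without a test. Mapk3 was nearest to Prdx1, a peroxiredoxin (Pearson r = 0.990), and Praf2 (r = 0.988). Prdx1 had 7878, 18003 and 13824 scaled reads in the knockout-labelled libraries and 10078, 14375 and 14954 in control-labelled ones, and was lowest in number 1 like Mapk3. Map2k1 was nearest to Vgll3, a cofactor of Tead factors (r = 0.998), with 2904, 1472 and 3422 in the knockout-labelled libraries and 2549, 1155 and 2069 in control-labelled ones. Map2k2 was nearest to Anapc13 (r = 0.989), a subunit of the anaphase-promoting complex, Braf to Ptar1 (r = 0.995), Hras to Tgds (r = 0.993) and Nras to Ankrd49 (r = 0.9975). By Spearman's rho the genes named for Braf, Hras and Nras were no longer the nearest.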

How the data were processed

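RNA of 6 libraries was measured. The authors deposited a signal per gene and library, which the values show to be read counts over a library-wide size factor. The submitters' processing notes list, without roles, edgeR 3.18.1, DESeq2 1.16.1, HTSeq, HISAT2 2.0.5 and Trimmomatic. Neither strand handling nor the build is stated there. Of 27093 Ensembl genes, 27065 were in GENCODE M21 (GRCm38), 26940 with the same coordinates. The authors also deposited FPKM values, and log2 fold changes with p-values of their comparison, as the deposited headers say. The authors' raw count table of 1031 features shared 480 genes with the main table. After the size of 1 read was recovered per library, 100.0% of values were whole within 0.01, and all 480 had the deposited count. In the main table, 36 broken lines were dropped. Another 6 per-sample columns were not used.

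limma 3.58.1 (trend, robust) was run on log2(scaled reads + 1) for the 20344 genes averaging 1 or more, as a two-sided test whose threshold was an adjusted p (Benjamini-Hochberg) under 0.05. edgeR 4.0.16 and DESeq2 1.42.0 were run on the recovered reads. The limma fit between the groups and the limma F test of replicate number were tested on simulated counts, while edgeR and DESeq2 were not. Alternatives were pseudocounts of 0.5 and 0.1, no filter or a mean of 10, TMM, upper-quartile and library-size scaling, a replicate block, and leaving out libraries. FPKM as a length measure was added after the data were seen. Over 14280 genes, same-numbered libraries deviated together from the means of their groups (r = 0.689, 0.633 and 0.625). The numbers were therefore treated as pairs in the block fits, the pair differences and the sign-flip test. The main fit and the permutation tests did not pair them. The pairing comes from the data, not the labels. Counting error is small beside replicate spread, with 283 to 4615 reads per library for the 7 genes.

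The 7 genes, the lists and the tests were chosen with earlier results of these data known. The text names the 7 genes, Islr, Sparc, the gene of smallest p and that of highest mean in each list, and the genes nearest to each of the 7, except that the one for Araf is not reported here. Other members of these families were not analysed here. Promoters are from RefSeq (GRCm38.p6), where 6 of the 7 genes matched.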

Additional observations from a re-analysis of the deposited data

How the results depend on the processing

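None of the 7 genes passed the threshold between the groups in any of the 21 alternatives, which include the replicate block, other scalings and tools, and each left-out library or replicate number. Map2k1, Map2k2 and Braf kept their direction in all 21. For 2 of these genes the size came close to 0, at 0.0026 for Braf without control 3 and 0.017 for Map2k1 without control 2. With the replicate block, limma called 0 genes and edgeR 0, with 933 and 609 at an unadjusted p under 0.05, while DESeq2 called 7 and limma called 93 without both libraries of number 1; the block changed no call among the 7. The unadjusted count of 276 was 120 with a mean of at least 10, 714 in DESeq2 with the block, 91 to 831 when 1 library was left out, and 1404 and 2043 with the block and without number 1 or 2. By library size alone the log2 fold change was 0.0047 for Mapk3 and 0.020 for Hras. With the block and without number 1 it was 0.038 for Mapk3 and 0.074 for Hras, without number 2 it was -0.023 for Araf and 0.027 for Nras, and without number 3 it was 0.024 for Mapk3. Leaving out 1 library, without the block, gave -0.22 to 0.18 for Mapk3, -0.14 to 0.23 for Araf, -0.089 to 0.057 for Hras and -0.23 to 0.13 for Nras. The causes were not tested. When 1 library was left out, the log2 ratio difference ranged from -0.80 to 0.13 for Araf over Braf and from -0.19 to 0.29 for Hras over Nras, against 0.36 to 0.72 for Map2k1 over Map2k2, which kept its direction. The count of 1291 genes between replicate numbers was 566 with a pseudocount of 0.1, 3309 with no filter, 795 with a mean of at least 10, 514 in edgeR, 2658 in DESeq2 and 291 to 2513 when 1 library was left out. The median log2 fold change of all genes moved by less than 0.1 under each scaling. With 3 libraries a group, the 95% interval of Map2k2 ran from 0.568 to 1.19 times the control level. That of Braf, the widest, ran from 0.687 to 2.41 times. Such an interval gives the differences compatible with these libraries, and not the smallest difference that the test could detect.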
